A study of Sus scrofa with 8 samples.

Results

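Aminoacyl-tRNA synthetase genes were examined in left ventricular RNA of 8 pigs, of which 4 were wild type (WT) and 4 carried an edited channel gene. The members were all rows of the deposited expression table whose symbol is a single letter followed by ARS with or without a final 1 or 2, together with EPRS1 and FARSA. The rule also covers FARSB, which is not analysed here. It found 36 genes among 14718 rows that name a gene. Of these, 19 are named without a final 2 and are called cytosolic, and 17 end in 2 and are called mitochondrial.

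Aminoacyl-tRNA synthetases attach each amino acid to its tRNA, the step that fixes which amino acid a codon will add to a protein. Animal cells translate in the cytosol and inside mitochondria, and most amino acids have a separate nuclear gene for the enzyme of each compartment. GARS1 and KARS1 are known to serve both compartments, and they are counted here as cytosolic by their names. In the cytosol, a group of synthetases is bound with the scaffold proteins AIMP1, AIMP2 and EEF1E1 in the multi-synthetase complex, while the remaining enzymes are outside it. The mitochondrial enzymes serve the translation of the respiratory chain subunits encoded in mitochondrial DNA, on which heart muscle depends. Many cytosolic synthetase genes are known targets of the transcription factor ATF4, which acts in the response to amino acid shortage.

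The WT pigs were labelled wt, and the mutant pigs carried a KCNH2 mutation in 3 cases and, by its label, a KCNH3 mutation in 1 case, mutant replicate 4. The series design names KCNH2 alone. Values without that library are therefore given for the medians, the count of members at an unadjusted p under 0.05 and some genes. KCNH2 encodes a potassium channel subunit of ventricular repolarization, and variants that impair it cause an inherited form of long QT syndrome. WT replicates 1 to 4 are pigs 1, 2, 4 and 5, and mutant replicates 1 to 4 are pigs 6 to 9. Wherever 4 values of a group are listed, they follow this order. The labels give the kind of edit, allele state, clone, age, sex and litter of no animal, so each p-value reflects no more than the variation among the sampled pigs.

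Library depth was 15.9 to 22.4 M reads (M is the SI prefix mega). Transcripts encoded in mitochondrial DNA took 31.7% to 87.9% of the reads in WT libraries and 15.9% to 27.5% in mutant libraries. WT replicate 3 therefore held only 2.53 M reads of nuclear genes and WT replicate 4 held 7.53 M, against 11.5 to 16.2 M elsewhere. KCNH2 itself had 148 to 1909 normalized counts in WT and 798 to 1839 in mutant libraries (limma adjusted p = 0.438), so its level did not check the labels. All 8 cardiomyocyte markers, including the troponin gene TNNT2, were present in every library.

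All 36 synthetase genes reached 10 normalized counts in 4 or more libraries and were tested. None passed limma over all 11660 genes at an adjusted p under 0.05, where 0% of all genes were called. The smallest adjusted p among the synthetases was 0.218 and the largest 0.998. At an unadjusted p under 0.05, 10 of the 36 were higher in mutant libraries and 0 were lower, beside 7.06% of all genes higher and 6.8% lower. Of these 10, 6 were mitochondrial (IARS2, LARS2, SARS2, EARS2, NARS2 and MARS2) and 4 cytosolic (EPRS1, IARS1, SARS1 and MARS1). By other tools, edgeR called 0 synthetases (0% of all genes) and had 8 higher at an unadjusted p under 0.05, where 14.8% of all genes passed in either direction. DESeq2 called 1, IARS2, beside 4.56% of all genes, and had 11 higher at an unadjusted p under 0.05, beside 18.5% of all genes in either direction. The authors' deposited table also calls IARS2 higher and no other member, while it calls 4.54% of its genes, of which those higher make up 1.32% of its genes.

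The direction was mixed over the family. Mean log2 values were higher in the mutant group for 22 members and lower for 14, beside 56.9% of all genes higher. The median log2 difference was 0.38 over cytosolic and 0.57 over mitochondrial members, while the median over all genes tested was 0.12. The cytosolic median was 0.15 without mutant replicate 3 (all genes 0.12), 0.19 without WT replicate 3 (all genes 0.03), 0.23 without mutant replicate 4 (all genes 0.12) and 0.05 without WT replicates 3 and 4 (all genes 0.01). The mitochondrial median was 0.34 without WT replicates 3 and 4 (all genes 0.01) and 0.61 without mutant replicate 4 (all genes 0.12). All 4 mutant libraries lay above all 4 WT libraries for 6 members, beside 6.17% of all genes tested, and below them for 0, beside 5.22%. These 6 were IARS2, LARS2, YARS2, MARS2 and HARS2 among the mitochondrial enzymes and EPRS1 among the cytosolic ones.

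**Figure D1:**
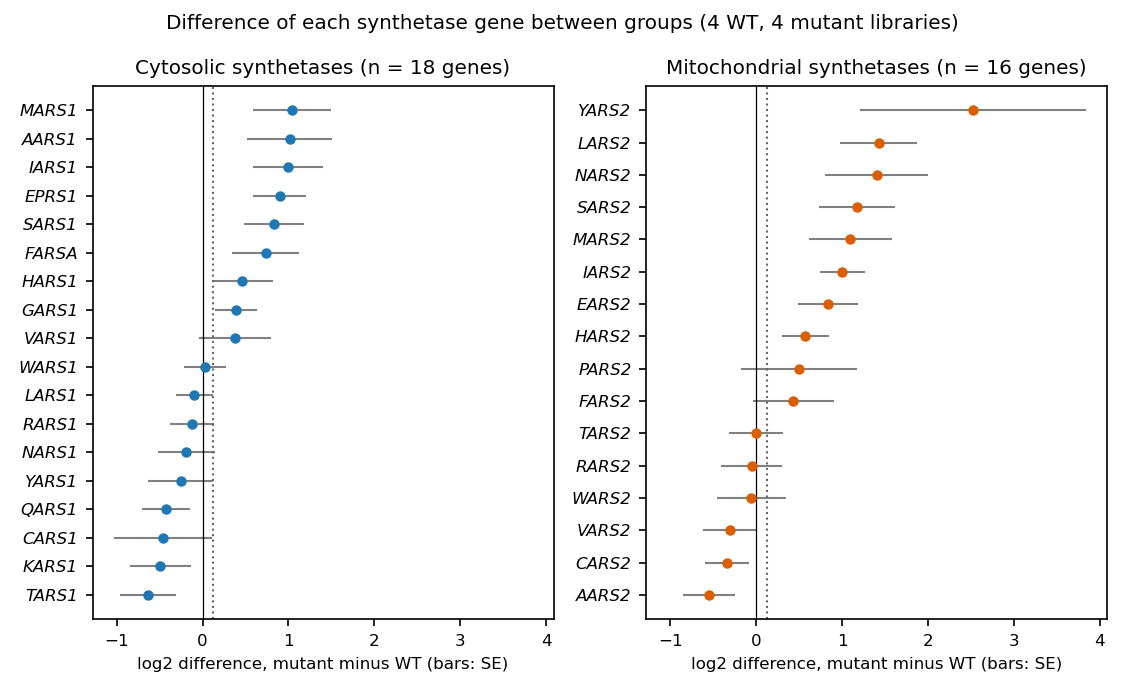
Log2 difference between mutant and WT means for 18 of 19 cytosolic and 16 of 17 mitochondrial synthetase genes (points; bars are the SE of the limma fit, 4 libraries per group). The dotted line is the median over all genes tested, 0.12, and the members spread from -0.63 for TARS1 to 2.52 for YARS2.

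The number of members at an unadjusted p under 0.05 depended on single libraries. It was 2 without mutant replicate 3 (4.19% of all genes higher), 3 without mutant replicate 4 (3.66%) and 5 without mutant replicate 2 (5.15%). Leaving out WT replicate 2 gave 6 (8.34%), leaving out WT replicate 4 gave 6 (7.71%), and leaving out WT replicates 3 and 4 together gave 5 (8.54%). It was 12 without WT replicate 1 (9.93%), 8 without WT replicate 3 (7.69%), 10 without mutant replicate 1 (4.99%) and 6 with a plain prior for the variance (6.6%). Members without overlap numbered 10 when WT replicate 1 was left out (11.1% of all genes) and 7 when WT replicates 3 and 4 were left out (15.2%). Fewer cells of a type and less RNA per cell cannot be told apart in these bulk tissue samples.

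Among the mitochondrial enzymes, IARS2, which charges the mitochondrial isoleucine tRNA, had the clearest separation. Its normalized counts were 1308, 1409, 862 and 718 in the WT pigs and 2213, 1948, 1982 and 2176 in the mutant pigs. Every mutant library was above the highest WT library, and the mutant values were close to each other. The means were 1074 ± 336 for WT and 2080 ± 134 for mutant pigs (SD, n = 4). The log2 difference was 1.01 ± 0.26 (SE; limma adjusted p = 0.218; DESeq2 adjusted p = 0.0301). The authors' deposited table gives IARS2 a log2 fold change of 0.95 with an adjusted p of 0.0302. Without WT replicates 3 and 4, the libraries with the most reads from mitochondrial DNA, the limma difference was 0.61. Leaving out mutant replicate 4 gave 0.98. In the RefSeq pig annotation (Sscrofa11.1), the IARS2 locus overlaps that of RAB3GAP2, whose own log2 difference was 0.03 ± 0.21 (SE).

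LARS2, the mitochondrial leucyl enzyme, had 376, 270, 179 and 76.4 normalized counts in the WT pigs. Mutant replicates 1 to 4 had 635, 404, 517 and 554. The groups did not overlap, and WT replicate 4 was the lowest library. Between the groups LARS2 differed by a log2 value of 1.43 ± 0.45 (SE; limma adjusted p = 0.258), and it was 0.71 without WT replicates 3 and 4. HARS2, the mitochondrial histidyl enzyme, was at 129 to 200 normalized counts in WT and 217 to 294 in mutant libraries, again without overlap. Its log2 difference was 0.57 ± 0.27 (SE; limma adjusted p = 0.384), and 0.61 without WT replicates 3 and 4. MARS2, the mitochondrial methionyl enzyme, was at 24.3 to 78.6 normalized counts in WT and 84.3 to 137 in mutant libraries, so the closest libraries of the groups nearly met. For MARS2 the log2 difference was 1.10 with all libraries and 0.59 without WT replicates 3 and 4.

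Several large fitted differences were those of mitochondrial enzymes that had almost no reads in WT replicate 3. YARS2, the tyrosyl enzyme, had 110, 64.8, 0 and 65.5 normalized counts in the WT pigs and 206, 112, 150 and 150 in the mutant pigs. The 0 in WT replicate 3 allows up to 3 reads, or 14.5 normalized counts, because a single read of that library is worth 4.84 normalized counts. For YARS2 the log2 difference was 2.52 ± 1.32 (SE; limma adjusted p = 0.414) with that library and 0.95 without it. NARS2, the asparaginyl enzyme, had 6 reads in WT replicate 3, and its difference was 1.40 with and 0.86 without it. PARS2, the prolyl enzyme, had 3 reads there, and its difference was 0.50 with and -0.17 without it. The size of these differences thus depended on the library with the fewest nuclear reads.

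SARS2 and EARS2, the seryl and glutamyl enzymes of mitochondria, overlapped between groups only through WT replicate 1. SARS2 had 101 normalized counts in that library, 38.8 to 52.7 in the rest of the WT group and 99.5 to 156 in mutant libraries. EARS2 had 207 normalized counts in the first WT pig, 82.4 to 101 in the rest of the WT group and 173 to 230 in mutant libraries. The log2 differences were 1.18 ± 0.44 (SE) for SARS2 and 0.84 ± 0.35 (SE) for EARS2 (limma adjusted p = 0.303 and 0.328), and 0.73 and 0.50 without WT replicates 3 and 4.

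The mitochondrial family did not move as a block. AARS2, the alanyl enzyme, was the mitochondrial member with the most negative difference. It had 241, 195, 388 and 381 normalized counts in the WT pigs and 177, 242, 212 and 166 in the mutant pigs. The high values were those of WT replicates 3 and 4, and WT replicates 1 and 2 lay within the mutant range. Between the groups AARS2 differed by a log2 value of -0.55 ± 0.30 (SE; limma adjusted p = 0.434), and -0.14 without WT replicates 3 and 4. CARS2 and VARS2, the cysteinyl and valyl enzymes, had log2 differences of -0.34 ± 0.26 (SE) and -0.31 ± 0.31 (SE), with overlapping groups. With WT replicate 4 left out, the difference of VARS2 was -0.04 and that of CARS2 -0.51. With WT replicates 3 and 4 left out, that of VARS2 was 0.07, and with WT replicate 3 left out that of CARS2 was -0.21. TARS2, RARS2 and WARS2, the threonyl, arginyl and tryptophanyl enzymes, had log2 differences between -0.06 and 0, each with an SE of 0.32 to 0.40. FARS2, the phenylalanyl enzyme, ranged over 107 to 403 normalized counts in WT and 180 to 483 in mutant libraries. Its log2 difference was 0.43 with all libraries, 0.16 without WT replicate 3, 0.12 without mutant replicate 3 and -0.18 leaving out WT replicates 3 and 4.

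**Figure D2:**
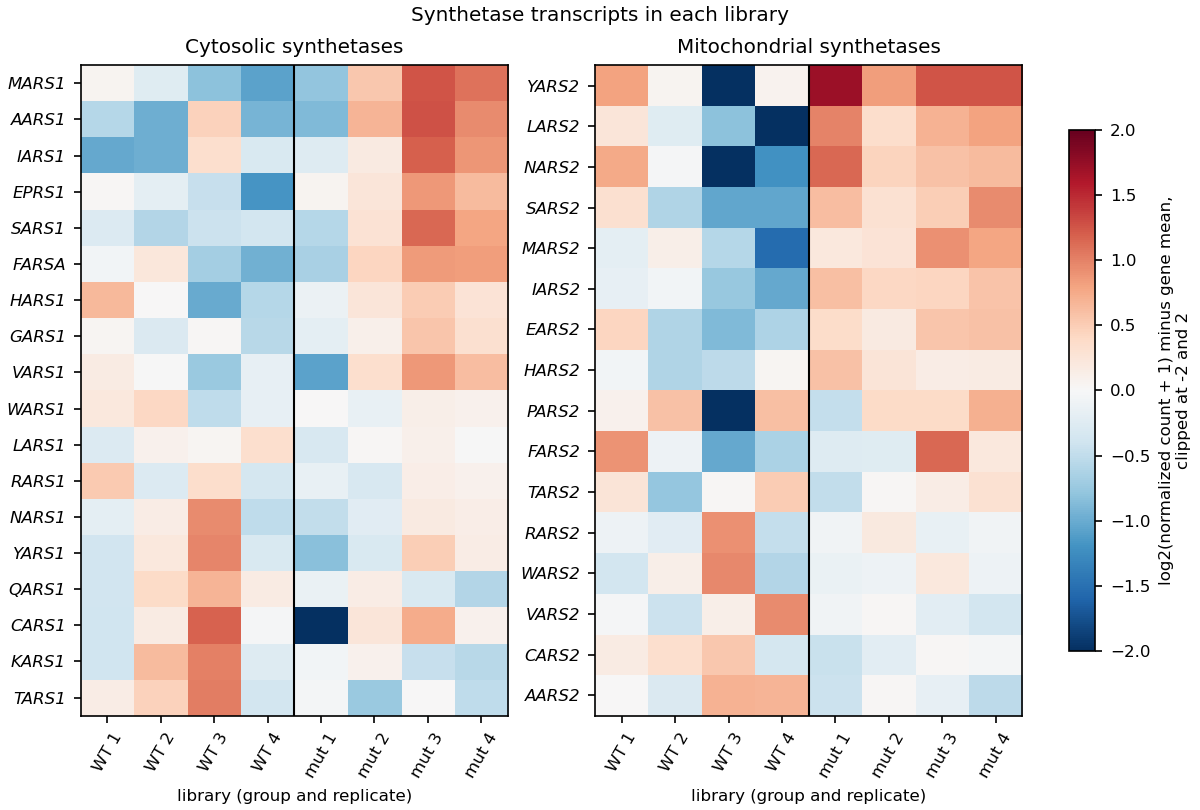
Log2(normalized count + 1) of 18 cytosolic and 16 mitochondrial synthetase genes (rows) in each of the 8 libraries (columns), minus the mean of the gene over the libraries, with colours clipped at -2 and 2. The blue cells of YARS2, NARS2 and PARS2 in WT replicate 3 stand for 0, 6 and 3 reads. The upper cytosolic rows are red in mutant replicates 2 to 4 but not in mutant replicate 1.

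Of the 8 cytosolic synthetases of the multi-synthetase complex, 4 had a higher and 4 a lower mean log2 value in mutant libraries. EPRS1, the bifunctional glutamyl-prolyl enzyme, was the cytosolic member whose groups did not overlap. Its normalized counts were 1429, 1227, 1022 and 621 in the WT pigs and 1453, 1662, 2564 and 2178 in the mutant pigs. The highest WT library and the lowest mutant library, replicate 1 of each group, were nearly equal. For EPRS1 the log2 difference was 0.90 ± 0.31 (SE; limma adjusted p = 0.280), and 0.53 without WT replicates 3 and 4. MARS1, the methionyl enzyme, had 1000.5, 818, 547 and 462 normalized counts in the WT pigs and 558, 1403, 2304 and 2067 in the mutant pigs. Mutant replicates 2 to 4 were above every WT library, and mutant replicate 1 lay among the WT values.

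IARS1, the cytosolic isoleucyl enzyme, had 606, 625, 1560 and 997 normalized counts in the WT pigs and 1040, 1396, 2822 and 2280 in the mutant pigs. WT replicate 3 was above the 2 lowest mutant libraries. The log2 differences were 1.04 ± 0.45 (SE) for MARS1 and 1.00 ± 0.40 (SE) for IARS1 (limma adjusted p = 0.348 and 0.322), and they were 0.62 and 1.505 without WT replicates 3 and 4. In the RefSeq pig annotation the MARS1 locus overlaps that of DDIT3, a stress-induced transcription factor, whose log2 difference was -0.86 ± 0.42 (SE). Whether strand was used in counting is not given, and reads of such overlapping genes cannot be told apart.

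The other members of the complex differed less or in the opposite direction. KARS1, the lysyl enzyme, had 5288, 10849, 13986 and 5825 normalized counts in the WT pigs and 6704, 7392, 5084 and 4732 in the mutant pigs. WT replicates 2 and 3 were far above the mutant libraries, and WT replicates 1 and 4 lay within their range. For KARS1 the log2 difference was -0.49 ± 0.36 (SE; limma adjusted p = 0.531), and -0.24 without WT replicate 3. QARS1, the glutaminyl enzyme, had a log2 difference of -0.43 ± 0.28 (SE), and -0.27 without WT replicate 3. LARS1 and RARS1, the leucyl and arginyl enzymes, had differences of -0.10 ± 0.22 (SE) and -0.12 ± 0.26 (SE).

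Among the 11 cytosolic enzymes outside the complex, AARS1 and SARS1 showed the pattern of MARS1. AARS1, the alanyl enzyme, had 1338, 1012, 2727 and 1046 normalized counts in the WT pigs and 1082, 3204, 4803 and 3850 in the mutant pigs. SARS1, the seryl enzyme, had 1438, 1167, 1289 and 1358 in WT and 1172, 2131, 3883 and 3000.1 in the mutant pigs. For both genes mutant replicates 2 to 4 were above every WT library, while mutant replicate 1 was within the WT range. The log2 difference of AARS1 was 1.01 ± 0.49 (SE; limma adjusted p = 0.392). It was 1.47 without mutant replicate 1, 0.76 without mutant replicate 3 and 0.86 without mutant replicate 4. The log2 difference of SARS1 was 0.83 ± 0.35 (SE; limma adjusted p = 0.335). It was 1.16 without mutant replicate 1, 0.58 without mutant replicate 3 and 0.70 without mutant replicate 4.

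FARSA, a subunit of the phenylalanyl enzyme, and VARS1, the valyl enzyme, also had their lowest mutant value in replicate 1. FARSA was at 584 normalized counts in that library, 1223 to 1650.3 in the other mutant libraries and 468 to 1066 in WT. VARS1 was at 404 normalized counts in mutant replicate 1, 1069 to 1540.1 in the other mutant libraries and 504 to 954 in WT. CARS1, the cysteinyl enzyme, had 141 normalized counts in mutant replicate 1, 603 to 952 in the other mutant libraries and 431 to 1284 in WT. Mutant replicate 1 was thus the lowest of the 8 libraries for VARS1 and CARS1. The log2 difference of FARSA was 0.73 with all libraries and 0.29 without WT replicates 3 and 4. That of VARS1 was 0.38 with all libraries, 0.79 without mutant replicate 1, 0.15 without mutant replicate 3 and 0.19 without WT replicate 3. The log2 difference of CARS1 was -0.46 ± 0.58 (SE) with mutant replicate 1 and 0.13 without it.

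TARS1, the threonyl enzyme, had the most negative difference of the family. Its normalized counts were 715, 891, 1323 and 505 in the WT pigs and 634, 386, 654 and 457 in the mutant pigs. WT replicate 4 lay within the mutant range. For TARS1 the log2 difference was -0.63 ± 0.33 (SE; limma adjusted p = 0.409), and -0.40 without WT replicate 3. NARS1 and YARS1, the asparaginyl and tyrosyl enzymes, had differences of -0.19 ± 0.33 (SE) and -0.25 ± 0.38 (SE), with their highest value in WT replicate 3, and of 0.09 and 0.03 without it. GARS1 and HARS1, the glycyl and histidyl enzymes, had differences of 0.39 ± 0.25 (SE) and 0.46 ± 0.36 (SE), and leaving out WT replicate 3 or 1 gave 0.20 or 0.75 for HARS1.

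WARS1, the cytosolic tryptophanyl enzyme, is known to be induced by interferon gamma. It was at 392.4 to 739 normalized counts in WT and 501 to 604 in mutant libraries. For WARS1 the log2 difference was 0.03 ± 0.25 (SE; limma adjusted p = 0.967), and it turned to -0.30 without WT replicates 3 and 4. In a list of interferon gamma response genes, 16 of 19 tested members had a lower mean log2 value in mutant libraries, beside 43.1% of all genes. None passed, and the median log2 difference was -1.14. The mean log2 deviation of these genes from their own means over the libraries was 0.72, 2.14, -1.54 and 1.28 in the WT pigs. In the mutant pigs it was 0.07, -1.01, -0.67 and -0.99. The groups thus overlapped, and WT replicate 3 was the lowest of the 8 libraries. The ubiquitin-like modifier gene ISG15 had a log2 difference of -2.79 ± 0.48 (SE; limma adjusted p = 0.142).

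The order of the mutant libraries was counted over the members. Mutant replicate 1 was the lowest mutant library for 13 of 19 cytosolic and 6 of 17 mitochondrial members, beside 36.5% of all genes tested. Mutant replicate 3 was the highest mutant library for 17 cytosolic and 4 mitochondrial members, beside 18.7% of all genes. The highest mutant value was at least 2-fold the lowest for 8 cytosolic and 3 mitochondrial members, beside 34% of all genes. Without mutant replicate 1, the mutant libraries lay above all WT libraries for 7 cytosolic members (AARS1, EPRS1, FARSA, GARS1, MARS1, SARS1 and VARS1), and for 5 mitochondrial members, together 12 where all libraries gave 6. The same count over all genes tested was then 8.83%. Mutant replicates 1 to 3 are all labelled KCNH2. The order was noticed in these values and was not tested.

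**Figure D3:**
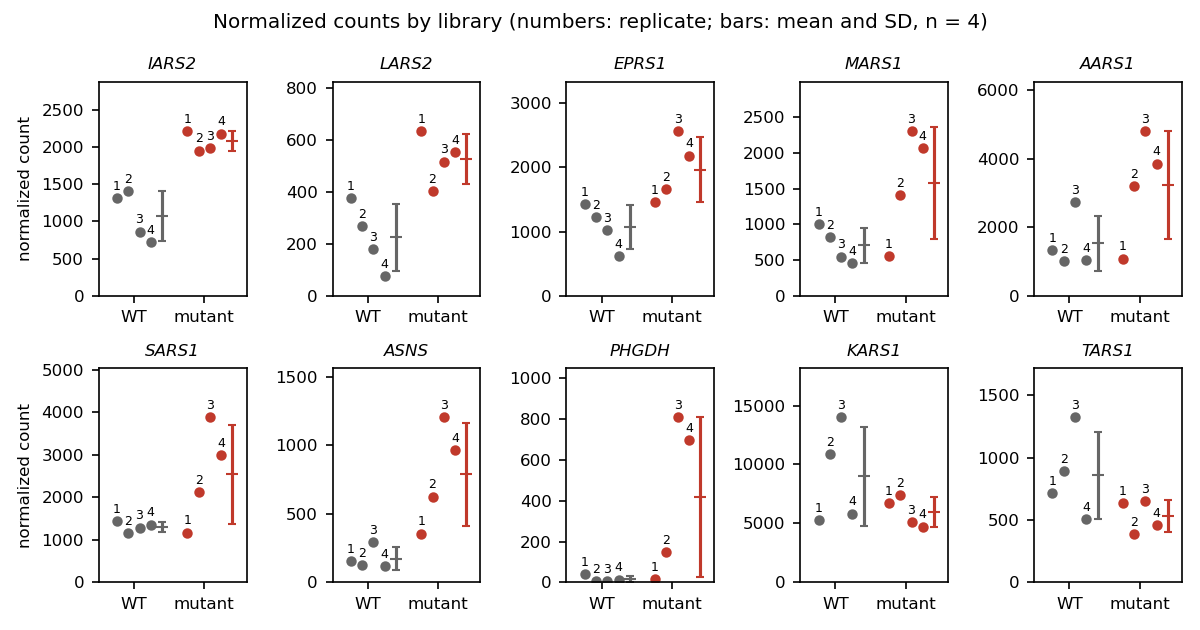
Normalized counts of 8 synthetase genes and of ASNS and PHGDH in each library (points, numbered by replicate; grey WT, red mutant; bars are mean and SD, n = 4; axes start at 0). IARS2 and LARS2 are high in every mutant library, whereas MARS1, AARS1, SARS1 and PHGDH are high in mutant replicates 2 to 4 only, with mutant replicate 1 at WT level.

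Genes of the amino acid response were followed in a separate list of 36 genes, of which 35 were tested. None passed limma, 6 were higher and 5 lower at an unadjusted p under 0.05 (7.06% and 6.8% of all genes), and the median log2 difference was 0.05. ASNS, the asparagine synthetase and an ATF4 target, had 157, 124, 296 and 116 normalized counts in the WT pigs and 355, 627, 1204 and 965 in the mutant pigs. The groups of ASNS did not overlap, and its mutant libraries had the order of those of AARS1, SARS1 and MARS1. For ASNS the log2 difference was 2.14 ± 0.44 (SE; limma adjusted p = 0.172; DESeq2 adjusted p = 0.000484). PHGDH, the entry enzyme of serine synthesis, had 39.7, 6.91, 4.84 and 13.3 normalized counts in the WT pigs and 17.1, 148, 807 and 696 in the mutant pigs. Here too mutant replicate 1 lay among the WT libraries. For PHGDH the log2 difference was 3.94 ± 1.20 (SE; limma adjusted p = 0.246). Its WT values rest on 50, 8, 1 and 11 reads. The value of WT replicate 3 is below the 14.5 normalized counts that a count of 0 allows there, so the size of the difference is imprecise.

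The transcript of ATF4 itself had the opposite direction. It was at 2355, 6009, 9277 and 11157 normalized counts in the WT pigs and 2222, 1836, 2916 and 2379 in the mutant pigs. WT replicate 1 lay within the mutant range, and the other WT libraries were far above it. The log2 difference of ATF4 was -1.42 ± 0.45 (SE; limma adjusted p = 0.258; DESeq2 adjusted p = 0.0168), and -0.71 without WT replicates 3 and 4. ATF4 is known to be controlled mainly through translation of its mRNA, which RNA counts do not measure. CEBPB, a transcription factor that acts with ATF4, had a log2 difference of -1.42 ± 0.36 (SE; limma adjusted p = 0.217).

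Cytosolic and mitochondrial enzymes were compared as shares of the reads of nuclear genes, a measure that does not depend on the size factors. Mitochondrial synthetases took 0.0481%, 0.0408%, 0.0306% and 0.0411% of these reads in the WT pigs and 0.0592%, 0.0544%, 0.0601% and 0.0612% in the mutant pigs. The Wilson 95% interval of WT replicate 3, the shallowest library, was 0.0285% to 0.0328%. Every mutant library was above every WT library. IARS2 alone gave 19.2% to 37.7% of these reads, and without IARS2 the groups overlapped, at 0.0236% to 0.0354% in WT and 0.0342% to 0.0399% in mutant libraries.

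Cytosolic synthetases took 0.230%, 0.297%, 0.308% and 0.231% of nuclear reads in the WT pigs and 0.226%, 0.313%, 0.382% and 0.334% in the mutant pigs. The groups overlapped, since mutant replicate 1 was the lowest of all 8 libraries. KARS1 gave 13.6% to 37.0% of the cytosolic synthetase reads. Without it, the share was 0.168% to 0.194% in WT, 0.158% in mutant replicate 1 and 0.236% to 0.330% in mutant replicates 2 to 4. Mitochondrial enzymes made up 9.04% to 17.3% of all synthetase reads in WT and 13.6% to 20.8% in mutant libraries.

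**Figure D4:**
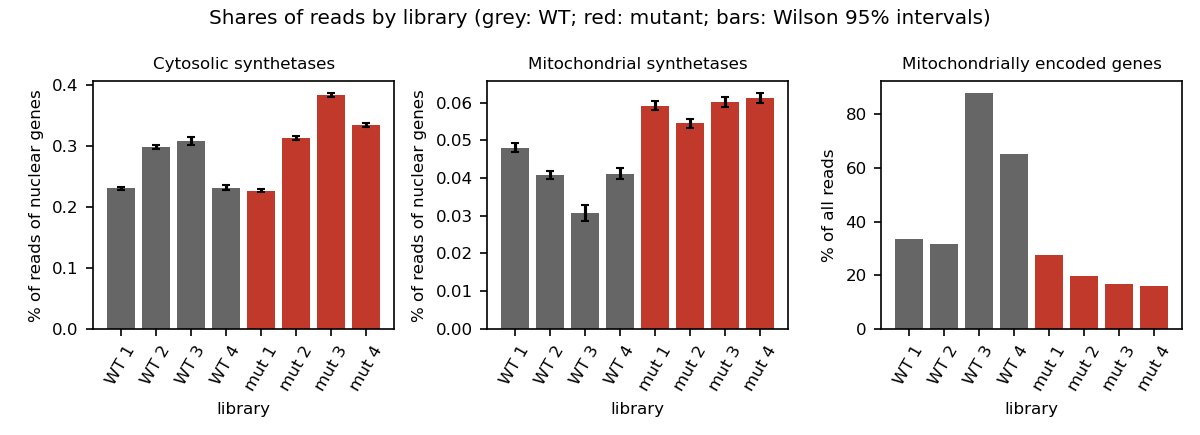
Share of the reads of nuclear genes that fell on cytosolic and on mitochondrial synthetases, and share of all reads from mitochondrial DNA, in each library (bars; error bars are Wilson 95% intervals, counting error only). The mitochondrial synthetase share is 0.0306% to 0.0481% in WT and 0.0544% to 0.0612% in mutant libraries, while the cytosolic share overlaps between groups.

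The mean deviation of each set from the gene means, on the log2 scale, was also computed for each library. For mitochondrial members it was 0.23, -0.15, -0.95 and -0.44 in the WT pigs and 0.34, 0.18, 0.42 and 0.39 in the mutant pigs. For cytosolic members it was -0.11, -0.06, 0.10 and -0.42 in WT and -0.43, 0.10, 0.52 and 0.29 in the mutant pigs. The mutant libraries thus differed little from each other in the mitochondrial set (SD 0.11, n = 4) and more in the cytosolic set (SD 0.40, n = 4). The lowest mitochondrial deviations were those of WT replicates 3 and 4, which also had the 2 highest shares of reads from mitochondrial DNA, 87.9% and 65.2%, and the part of those shares in the result was not tested. Cytosolic minus mitochondrial deviation was 0.21 ± 0.59 for WT and -0.21 ± 0.38 for mutant pigs (SD, n = 4). The difference of -0.42 was smaller than the SD of the WT pigs and larger than that of the mutant pigs. By library this deviation was -0.33, 0.10, 1.06 and 0.03 in the WT pigs and -0.77, -0.08, 0.10 and -0.10 in the mutant pigs. The groups overlapped, and every WT library except replicate 3 lay within the mutant range. The size of the difference thus depended on WT replicate 3.

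For 17 amino acids a cytosolic and a mitochondrial enzyme could be set side by side, with EPRS1 counted for glutamate and for proline. Both enzymes differed in the same direction for 11 of them. Isoleucine and methionine had nearly equal differences, 1.00 for IARS1 with 1.01 for IARS2 and 1.04 for MARS1 with 1.10 for MARS2. Serine was similar, with 0.83 for SARS1 and 1.18 for SARS2. Alanine had the widest gap in favour of the cytosolic enzyme, with 1.01 for AARS1 and -0.55 for AARS2. The log2 ratio of AARS1 to AARS2 was 2.28 ± 0.58 for WT and 3.84 ± 0.90 for mutant pigs (SD, n = 4), and mutant replicate 1 at 2.61 lay below WT replicate 3 at 2.81.

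Leucine had a wide gap in the other direction, with -0.10 for LARS1 and 1.43 for LARS2. The log2 ratio of LARS1 to LARS2 was 1.11, 1.95, 2.50 and 4.01 in the WT pigs and 0.31, 1.31, 1.03 and 0.83 in the mutant pigs, so WT replicate 1 lay within the mutant range. The ratios for tyrosine and asparagine had the same direction, but YARS2 and NARS2 had 0 and 6 reads in WT replicate 3. Over the 17 amino acids the ratio of cytosolic to mitochondrial enzyme was higher in mutant libraries for 6 and lower for 11, and the groups overlapped for all 17. The median change of the log2 ratio was small, at -0.07.

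**Figure D5:**
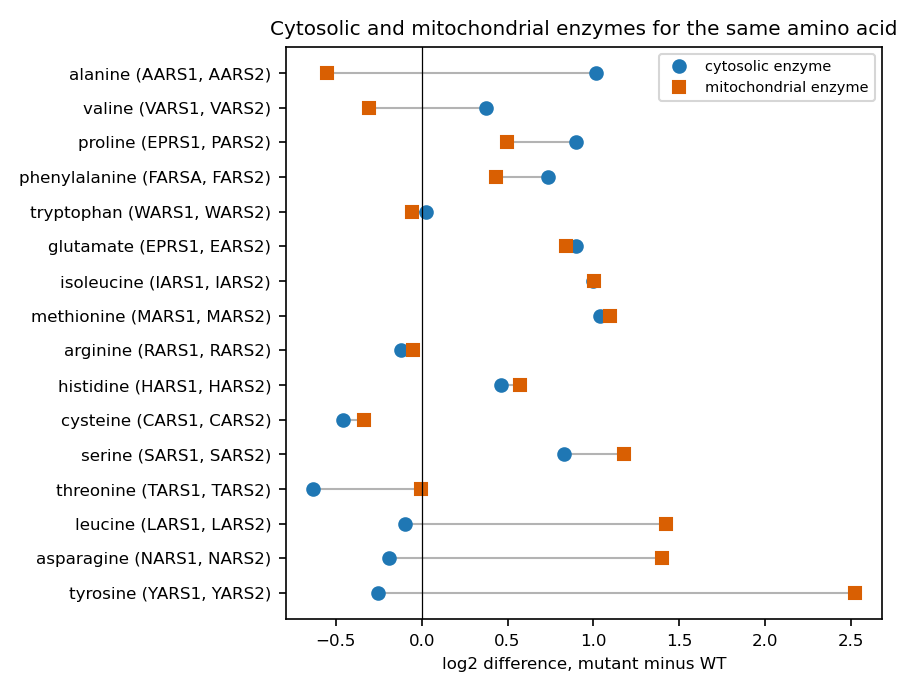
Log2 difference between mutant and WT means of the cytosolic (circles) and mitochondrial (squares) enzyme for 16 of the 17 amino acids, ordered by the gap between them. Isoleucine, methionine and glutamate pairs nearly coincide, alanine has the widest gap with the cytosolic enzyme higher, and tyrosine, whose YARS2 has 0 reads in WT replicate 3, the widest with the mitochondrial enzyme higher.

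Of 6 tested members of the list of complex scaffolds and elongation factor 1 subunits, 5 had a lower and 1 a higher mean log2 value, beside 43.1% of all genes lower. At an unadjusted p under 0.05, 3 were lower, beside 6.8% of all genes, and none passed. AIMP1, the scaffold that holds RARS1 in the complex, had 1745, 1672, 3914 and 1955 normalized counts in the WT pigs and 1208 to 1350 in mutant libraries. Every mutant library was below every WT library, with a log2 difference of -0.77 ± 0.29 (SE; limma adjusted p = 0.307), and leaving out its highest library, WT replicate 3, gave -0.48. With WT replicates 3 and 4 both left out it was -0.42. The other scaffolds overlapped, with log2 differences of -0.61 ± 0.49 (SE) for EEF1E1 and 0.54 ± 0.73 (SE) for AIMP2, which had 8.49 normalized counts in WT replicate 4 and 40.3 to 82.4 elsewhere. Without WT replicate 3 that of EEF1E1 was -0.14, and without WT replicate 4 that of AIMP2 was -0.15.

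Elongation factor 1 brings charged tRNA to the ribosome. EEF1D, a subunit of its nucleotide exchange complex, was at 3844 to 5673 normalized counts in WT and 2219 to 3185 in mutant libraries, without overlap. Between the groups EEF1D differed by a log2 value of -0.75 ± 0.24 (SE; limma adjusted p = 0.258; DESeq2 adjusted p = 0.0438). EEF1B2, another exchange subunit, had a difference of -0.995 ± 0.39 (SE), and EEF1A2, the muscle form of the tRNA carrier, one of -0.38 ± 0.31 (SE). That of EEF1B2 was -0.30 without WT replicates 3 and 4, and that of EEF1A2 was -0.22 without WT replicate 2. TARS3, a threonyl-tRNA synthetase gene outside the rule, had a difference of 0.73 ± 0.51 (SE), opposite in sign to that of TARS1, and of 0.42 without WT replicate 1.

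In the list of mitochondrial tRNA charging and modification, 9 of 14 tested genes were higher and 5 lower in mean log2 value (56.9% and 43.1% of all genes), with a median of 0.31, and none passed. The amidotransferase genes QRSL1 and GATC, which make glutaminyl-tRNA in mitochondria in place of a separate synthetase, had log2 differences of 0.50 ± 0.43 (SE) and -0.01 ± 0.37 (SE), the former 0.04 when WT replicate 4 was left out. MTFMT, which formylates the initiator methionyl-tRNA, had a difference of 0.17 ± 0.55 (SE), and -0.39 without WT replicate 3. MTO1, a tRNA wobble-base modifier, was at 145 to 431 normalized counts in WT and 377 to 449 in mutant pigs, and the log2 difference was 0.81 ± 0.34 (SE; limma adjusted p = 0.332), and 0.28 without WT replicates 3 and 4. PUS1, a pseudouridine synthase for tRNA, went the other way without overlap, at 267 to 451 normalized counts in WT and 140 to 211 in mutant libraries. For PUS1 the log2 difference was -1.05 ± 0.27 (SE; limma adjusted p = 0.217; DESeq2 adjusted p = 0.0110). PUS1 was the only gene of the list without overlap, beside 11.4% of all genes tested without overlap in either direction. The groups overlapped for the other 13 genes, among them TRMU, GTPBP3, TRMT10C, HSD17B10, PRORP, NSUN3, CDK5RAP1, TRMT61B and TFB1M.

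Of 11 tested mitochondrial translation factors, 10 had a higher and 1 a lower mean log2 value in mutant libraries, beside 56.9% of all genes higher, with a median of 0.42. At an unadjusted p under 0.05, 2 were higher, beside 7.06% of all genes, and none passed. GFM1, the mitochondrial elongation factor G, had 1002, 602, 688 and 211 normalized counts in the WT pigs and 1660.3, 1160.3, 1421 and 1589 in the mutant pigs. Its log2 difference was 1.41 ± 0.43 (SE; limma adjusted p = 0.246), without overlap, and 0.89 without WT replicates 3 and 4. MTIF2, the mitochondrial initiation factor, was at 225 to 339 normalized counts in WT and 362 to 405 in mutant pigs, and the log2 difference was 0.57 ± 0.22 (SE; limma adjusted p = 0.317). GFM2, a ribosome recycling factor, was at 0 reads in WT replicate 3, 75.2 to 157 normalized counts in the rest of the WT group and 179 to 391 in mutant libraries. For GFM2 the log2 difference was 3.02 with WT replicate 3 and 1.302 without it.

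Of 24 tested genes of tRNA maturation and export, 7 were higher and 17 lower in mean log2 value, beside 43.1% of all genes lower, with a median of -0.16 and none passing. TSEN34, a subunit of the tRNA splicing endonuclease, was at 223 to 320 normalized counts in WT and 96.5 to 135 in mutant libraries. Its log2 difference was -1.11 ± 0.28 (SE; limma adjusted p = 0.217; DESeq2 adjusted p = 0.00406). POP7, a subunit of the tRNA 5' processing enzyme RNase P, was at 273 to 533 normalized counts in WT and 171 to 230.3 in mutant pigs, and the difference was -0.98 ± 0.27 (SE; limma adjusted p = 0.228). In the lists of tRNA editing and of selenocysteine tRNA synthesis, 6 and 6 genes were tested, and 3 and 3 were higher (56.9% of all genes). None had an unadjusted p under 0.05 with limma, where 13.9% of all genes passed in either direction. Lists of 6 genes are too short to read that count as a result.

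Regulators of amino acid sensing and growth were included because they act upstream of translation. Of 23 tested genes of the mTORC1 pathway, 12 were higher and 11 lower in mean log2 value (56.9% and 43.1% of all genes), and none passed. The kinase gene MTOR was at 484 to 801 normalized counts in WT and 1087 to 1430.2 in mutant pigs, and the log2 difference was 1.02 ± 0.23 (SE; limma adjusted p = 0.197). FLCN, which acts in amino acid signalling to this kinase, was at 717 to 1117 normalized counts in WT and 328 to 424 in mutant pigs, and the difference was -1.27 ± 0.22 (SE; limma adjusted p = 0.142). In the MYC network list, 10 of 11 tested genes were lower, beside 43.1% of all genes, with a median of -0.47 and none passing. MYC itself had a log2 difference of -2.62 ± 0.47 (SE; limma adjusted p = 0.142).

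Markers of other cell types varied between libraries. The summed normalized counts of 8 cardiomyocyte markers were 466588 to 656216 in WT and 732818 to 785524 in mutant libraries, without overlap. Of these 8 markers, 6 were higher in mutant libraries in mean log2 value, beside 56.9% of all genes. The sums of 8 endothelial markers were 10619 to 41452 in WT and 16318 to 24261 in mutant libraries, and those of 8 fibroblast markers 6197 to 70725 and 19462 to 50696. Smooth muscle and pericyte markers summed to 11020 to 36378 in WT and 15179 to 24008 in mutant libraries, and macrophage markers to 833 to 4869 and 1555 to 4318. The sums were 120.0 to 2970 and 64.8 to 551 for 6 neutrophil markers, 62.8 to 158 and 112 to 178 for 8 lymphocyte markers, 49.7 to 31848 and 2529 to 3013 for 5 erythroid markers, and 14457 to 33863 and 19211 to 25175 for 7 adipocyte markers (WT and mutant). At least 1 library was at 0 for CD68 and MRC1 of macrophages, S100A8, MMP8 and IL1R2 of neutrophils, SLC4A1, AHSP and HBM of red cells, and ADIPOQ, PLIN1 and CIDEC of adipocytes. The same held for 7 of the 8 lymphocyte markers, PTPRC, CD3D, CD2, CD8A, MS4A1, CD79A and NKG7. In mean log2 value, all 8 macrophage markers were higher and all 5 erythroid markers lower in mutant libraries, beside 56.9% and 43.1% of all genes. The WT sums of both lists nevertheless reached below and above the mutant range. The part of the cell makeup in the synthetase differences was not tested.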

How the data were processed

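RNA of left ventricular tissue was sequenced after selection of polyadenylated RNA and random-primed cDNA synthesis, per the labels' protocols. The deposited signal columns hold normalized counts, that is reads scaled by a size factor of each library, as the file headers and values show. The values were 100% whole multiples of a read (tolerance 1e-06 reads). DESeq2 and the build GRCh38 are named in the submitters' processing notes. Aligner, counter and annotation: not given in the sources used here. Coordinates and sequences are therefore left out. The authors' table also holds a log2 fold change with its standard error, a Wald score, and p-values. From it, 2 rows named for an annotation source (0.392% to 0.853% of reads) were left out.

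The fit used limma 3.58.1 (R 4.3.3) on log2(normalized count + 1) with a trended, robust prior, for genes that reached 10 normalized counts in 4 or more libraries, with Benjamini-Hochberg adjustment over all genes and a threshold of 0.05. Fold changes are on this scale, where those of low genes depend on the pseudocount, and those of genes near 0 in 1 library depend on that library: that of YARS2 was 2.52 here and 1.31 with DESeq2. No p was computed over the family or any list. Alternatives were edgeR 4.0.16 (quasi-likelihood) and DESeq2 1.42.0 on recovered reads, other scalings, pseudocounts, filters, a plain prior, array quality weights and left-out libraries. The fits were also run on simulated counts that had the same dispersion for every gene and library. That setting is simpler than these data, and no result here rests on it. Wilson 95% intervals and the limit of 3 reads for a count of 0 cover counting error only. Gene symbols were matched to RefSeq Sscrofa11.1 for overlapping loci only, using older symbols without the final 1, for 35 of 36 members.

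Members and lists were chosen with earlier results of these data known. Named genes were all synthetases, up to 4 genes with the smallest p per list, all partners and all genes of mitochondrial tRNA charging; DDIT3 and RAB3GAP2 were named after the values were seen, for their overlap with members. Some genes taken by this rule are counted in the totals but not reported here by name. Transcript lengths were not used here. Ratios and read shares between genes are therefore compared across libraries only and do not give relative transcript abundance.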

Additional observations from a re-analysis of the deposited data

Results flagged for a closer look

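A library far from the other 3 of its group was found in 2 of 68 groups of 4 libraries examined for 34 members, and chance alone flags about 1 in 20. EARS2 had 207 normalized counts in WT replicate 1, against 82.4 to 101 in the other WT libraries. WARS2 had 130.1 normalized counts in mutant replicate 3, against 103 to 105 in the other mutant libraries.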

How the results depend on the processing

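Of the 36 members, 23 kept their direction under all 19 alternatives (12 cytosolic, 11 mitochondrial) and 13 changed it in at least 1; the cause was not tested. The count of all genes with an adjusted p under 0.05, 0 with limma, was 582 with DESeq2, 3 with quantile scaling, 92 with array quality weights, 0 to 3 with 1 library left out and 12 without WT replicates 3 and 4. Members called were 0 with limma and 1 with DESeq2. Members higher at an unadjusted p under 0.05, 10 with all libraries, were 6 with a plain prior, 5 without WT replicates 3 and 4, and 2 to 12 with 1 library left out, and members lower were 0 to 1. Members without overlap, 6 with all libraries, were 6 to 12 with 1 library left out, 10 without WT replicate 1 (11.1% of all genes) and 12 without mutant replicate 1. The cytosolic median was 0.15 to 0.47 with 1 library left out and 0.048 without WT replicates 3 and 4, and the mitochondrial median 0.49 to 0.80 and 0.34. The median over all genes, 0.12, was 0.15 with TMM, 0.02 with quantile scaling and -0.06 with DESeq2. With array quality weights the log2 difference changed sign to 0.37 for CARS1, 0.065 for LARS1, 0.12 for NARS1, 0.0089 for RARS1, 0.043 for RARS2, 0.36 for TARS2, -0.13 for WARS1, 0.15 for WARS2, 0.27 for YARS1, 0.014 for GATC, -0.59 for MTFMT and 0.0058 for GTPBP3. Without WT replicates 3 and 4 it changed sign to -0.18 for FARS2, -0.097 for HARS1, 0.048 for LARS1, -0.084 for PARS2, 0.14 for RARS2, 0.26 for TARS2, 0.074 for VARS2, -0.30 for WARS1, 0.095 for WARS2, 0.00787 for GATC, -0.45 for MTFMT and -0.22 for TRMT61B. With TMM it was 0.024 for TARS2 and 0.016 for GATC, with quantile scaling 0.0031 for TARS2, with DESeq2 -0.023 for WARS1 and -0.065 for MTFMT and with edgeR -0.0068 for WARS1 and -0.056 for MTFMT. With 1 library left out, the genes that changed sign ranged over -0.79 to 0.13 for CARS1, -0.21 to 0.000195 for LARS1, -0.39 to 0.093 for NARS1, -0.17 to 0.78 for PARS2, -0.26 to 0.0303 for RARS1, -0.22 to 0.24 for RARS2, -0.26 to 0.17 for TARS2, -0.14 to 0.17 for WARS1, -0.26 to 0.25 for WARS2, -0.46 to 0.031 for YARS1, -0.15 to 0.89 for AIMP2, -0.31 to 0.30 for GATC, -0.39 to 0.47 for MTFMT, -0.39 to 0.24 for GTPBP3 and -0.0069 to 0.52 for PRORP. No paired analysis was possible because the labels give no replicate numbers shared between the groups. Members with under 10 reads in WT replicate 3 are measured imprecisely there.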
